A study of Mus musculus with 4 samples.

Results

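The genes described here are 7 genes of red cell membrane and haem synthesis: Alas2, Slc4a1, Epb42, Rhag, Hemgn, Slc25a37 and Bpgm. They were taken by name from 19938 genes measured in mouse nasal mucosa, and each had 1 probe set that mapped to its symbol alone. The tissue was nasal mucosa from the septum and turbinates of mice aged 8 weeks, of the strain labelled C56BL/6, and total RNA was measured on 4 Affymetrix arrays of whole transcripts. The 4 groups were wild type given PBS, wild type given flagellin, Duox2-/- given PBS and Duox2-/- given flagellin. Flagellin is the protein of bacterial flagella and was given at 5 ug/ml, with 25 ul dropped into each nostril and 4 h of exposure. Duox2 encodes an epithelial oxidase that makes hydrogen peroxide. Each group had 1 array, so there is no spread between replicates and a pairwise difference has no replicate check. The sources used here do not say how many mice gave the RNA of an array, whether vessels were flushed of blood or how the Duox2 allele was made.

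Red cells carry haemoglobin, and their precursors make it in the bone marrow. Haem is the iron-holding ring of haemoglobin, and its first step in red cell precursors is run by the enzyme encoded by Alas2. The red cell membrane is held to an inner protein net through a complex around band 3, the anion exchanger encoded by Slc4a1. Mature red cells of mammals have no nucleus and keep little RNA, while reticulocytes, the youngest circulating red cells, still hold RNA. Nasal mucosa is rich in vessels, and a tissue sample taken from it can hold blood.

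The values are log2 RMA values, in which a difference of 1 is 2-fold. Their medians lay between 6.48 and 6.56 in the 4 arrays, and the distance from their lower to their upper quartile was 2.79 (PBS) and 2.73 (flagellin) in wild type, and 2.54 and 2.43 under the Duox2-/- label. Dim genes lay higher in the latter pair. Over the 7467 genes whose highest value stayed under 6.52, the median of all values, the median difference between the PBS arrays (Duox2-/- label minus wild type) was 0.21, and over the 12471 brighter genes it was -0.04. Alas2, Slc4a1, Slc25a37 and Bpgm were among the brighter genes, and Epb42, Rhag and Hemgn among the dim ones. Duox2, the targeted gene, had log2 values of 4.95, 5.12, 5.23 and 5.50 in the order of the groups above and was not lower under the Duox2-/- label, so the genotype is named as a label throughout. Duox2 is itself a dim gene, with a difference of 0.27 between the PBS arrays, and no source used here says which exons the allele changes, so these values do not check the label. The olfactory neuron marker Omp lay between 11.85 and 12.16 and the airway secretory gene Bpifa1 between 12.53 and 12.73, so both epithelia of the nose were represented in every array.

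As described after the sequences, 5 of the genes were lowest in the wild-type PBS array, and the bases before the start sites of those with a window are shown for that reason. RefSeq windows of 250 bases before the start (GRCm38.p6) were found for 5 of the 7 members: Alas2, Epb42, Rhag, Hemgn and Bpgm. Slc4a1 and Slc25a37 had no entry. The letters searched, on both strands, were AGATAA, the variant of it written AGATAG, and the same letters with another first base, written TGATAA or, with both changes, TGATAG. These are forms bound by GATA factors. CCACCC, a form bound by KLF1, was searched as well. GATA1 and KLF1 are transcription factors of red cell precursors. Capitals mark the GATA letters as read on the strand of the gene, so a site on the other strand appears there as its reverse complement.
Alas2, chrX:150547167-150547416, plus strand: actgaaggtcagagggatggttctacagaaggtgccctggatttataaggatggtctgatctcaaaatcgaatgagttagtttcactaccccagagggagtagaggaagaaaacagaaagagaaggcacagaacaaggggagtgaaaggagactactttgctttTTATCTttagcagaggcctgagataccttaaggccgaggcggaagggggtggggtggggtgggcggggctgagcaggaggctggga
Epb42, chr2:121036878-121037127, minus strand: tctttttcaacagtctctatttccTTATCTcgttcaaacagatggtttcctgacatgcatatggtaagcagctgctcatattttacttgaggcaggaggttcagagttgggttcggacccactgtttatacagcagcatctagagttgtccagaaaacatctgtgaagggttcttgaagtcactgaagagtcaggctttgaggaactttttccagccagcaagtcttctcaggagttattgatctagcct
Hemgn, chr4:46404184-46404433, minus strand: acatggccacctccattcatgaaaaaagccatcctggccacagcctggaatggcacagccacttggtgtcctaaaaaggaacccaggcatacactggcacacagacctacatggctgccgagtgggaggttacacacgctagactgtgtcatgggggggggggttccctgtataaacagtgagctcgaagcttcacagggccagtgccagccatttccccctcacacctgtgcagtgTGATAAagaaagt
Rhag, chr17:40811106-40811135, plus strand, the site alone: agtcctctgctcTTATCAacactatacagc

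The GATA letters were found once in each of these 4 windows. They began 86 bases before the start of Alas2, 226 before that of Epb42, 13 before that of Hemgn and 31 before that of Rhag. They were not found in the window of Bpgm. CCACCC was found in the windows of Alas2, 3 times with overlapping letters, and Rhag, and in neither of Epb42 and Hemgn. Over all 32851 windows of this length in the table, 26.5% held the GATA letters and 28.1% held CCACCC. A match is a description of letters, and no binding was measured here.

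The membrane genes Slc4a1, Epb42 and Rhag were higher in 3 arrays than in wild-type PBS. Slc4a1, the anion exchanger of the red cell, had a log2 value of 5.93 in the wild-type PBS array and 7.28 after flagellin in wild type, and values of 6.97 (PBS) and 7.08 (flagellin) under the Duox2-/- label. Wild-type PBS stood 1.04 below the nearest of the others, which spanned 0.31 among themselves. Flagellin minus PBS was 1.36 in wild type, or 2.56-fold, and 0.11 under the Duox2-/- label.

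Epb42, which encodes protein 4.2, a membrane protein that binds band 3 and ankyrin, had 4.22, 5.25, 5.20 and 5.27 in the same order of arrays. The last 3 values lay within 0.07 of each other, and wild-type PBS was 0.97 below the lowest of them. Rhag encodes the Rh-associated glycoprotein, a partner of the Rh proteins and of the band 3 complex that conducts ammonia. Its log2 values were 3.74, 4.91, 4.72 and 5.02. Wild-type PBS was again the low array, by 0.98, and the other 3 spanned 0.30. Both genes are dim, in the class whose median was 0.21 between the PBS arrays.

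Alas2, the erythroid form of the enzyme that starts haem synthesis, had log2 values of 6.56 (PBS) and 7.24 (flagellin) in wild type and 7.36 (PBS) and 7.44 (flagellin) under the Duox2-/- label. Its wild-type PBS value was 0.68 below the next, and the others spanned 0.20. Hemgn, which encodes hemogen, a nuclear protein of blood-forming cells, had 5.44, 5.88, 6.16 and 6.17. Its wild-type PBS value was 0.44 below the next, the smallest gap of the 5 genes with this order.

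Slc25a37 and Bpgm ran the other way. Slc25a37 encodes mitoferrin 1, which carries iron into mitochondria for haem synthesis, and had 7.93, 7.80, 7.47 and 7.34. Wild-type PBS was its highest array. Both wild-type arrays lay above both arrays labelled Duox2-/-, and the flagellin difference was -0.13 under either genotype. Bpgm encodes the enzyme that makes 2,3-bisphosphoglycerate, the small molecule that lowers the oxygen affinity of haemoglobin. It had 8.42, 8.34, 8.28 and 8.20, a span of 0.21 over all 4 arrays. Both genes are also expressed in cells other than red cells.

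**Figure D1:**
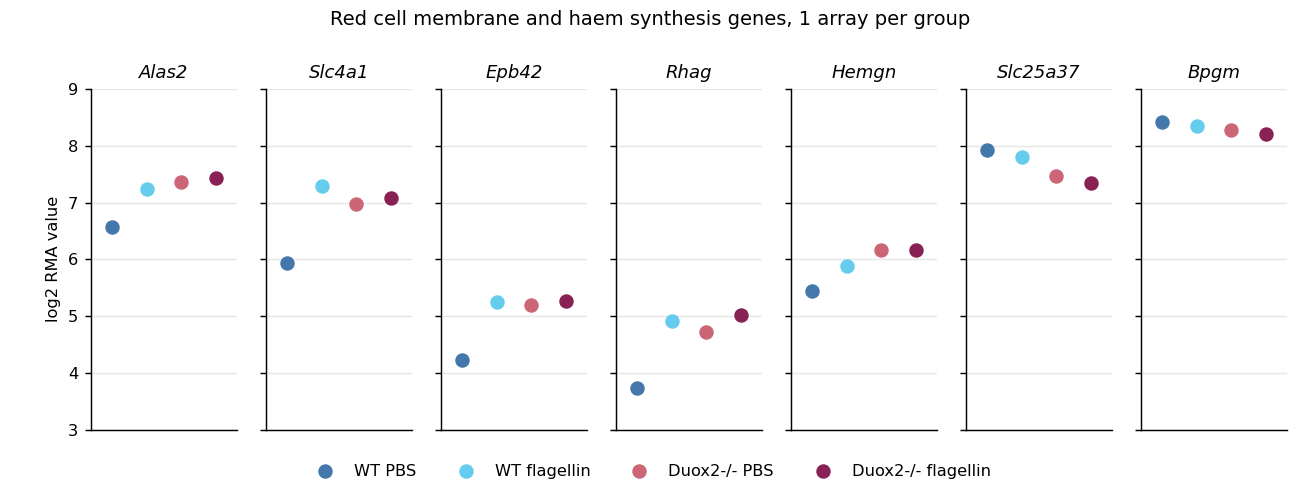
Log2 RMA values of the 7 genes on 1 shared axis, 1 panel for each gene and 1 point for each of the 4 arrays (1 array per group, no error bars). Alas2, Slc4a1, Epb42, Rhag and Hemgn are lowest in wild-type PBS (4.22 for Epb42 against 5.20 to 5.27 in the others), while Slc25a37 and Bpgm are highest there. Levels of different genes come from different probe sets and are not comparable.

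The wild-type PBS array was thus the lowest of the 4 for 5 of 7 members, where 29.1% of all 19938 genes had the same order. It was at least 1.25-fold below each of the other arrays for the same 5 members, a size chosen after the values were seen, and 3.98% of all genes passed it. Both shares are over dim and brighter genes together, and Epb42, Rhag and Hemgn are dim. The mean of the other 3 arrays was above wild-type PBS for 80.1% of dim genes, with a median difference of 0.19. For the brighter genes these values were 38.8% and -0.05. Neither share was counted for dim genes alone. Without the wild-type PBS array, the 5 genes spanned between 0.07 and 0.31 over the other 3 arrays.

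Comparing flagellin with PBS in wild type asks whether the bacterial protein shifts these transcripts in normal mucosa. Slc4a1, Rhag and Epb42 were at least 2-fold higher in the flagellin array, by 1.36, 1.17 and 1.03 on the log2 scale. These are 3 of 7 members, against 0.838% of all genes that were at least 2-fold higher. Alas2 was higher by 0.68 and Hemgn by 0.44. Slc25a37 was at -0.13 and Bpgm at -0.08. The median of the 7 was 0.68, beside 0.01 over all genes and 0.03 over the dim ones. In bulk tissue, more cells of a type and more RNA per cell cannot be told apart.

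The same comparison under the Duox2-/- label asks whether that shift is also seen in mice reported to lack the oxidase. No member was 2-fold apart in either direction, and 0.687% of all genes were. Rhag was at 0.30, Slc4a1 at 0.11, Alas2 at 0.08, Epb42 at 0.07 and Hemgn at 0.01, with Bpgm at -0.08 and Slc25a37 at -0.13. The median was 0.07, beside -0.01 over all genes. The signs of Epb42, Hemgn and Bpgm changed after cyclic loess, a rescaling of the arrays, and those of Hemgn and Bpgm after quantile normalization too.

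The difference between the responses, wild type minus Duox2-/- label, was 1.24 for Slc4a1, 0.96 for Epb42, 0.88 for Rhag, 0.60 for Alas2 and 0.43 for Hemgn. Slc4a1 was the only member at least 2-fold above 0, against 1.38% of all genes. For Slc25a37 and Bpgm the difference was -0.01 and 0.00, and their values after flagellin were lower than after PBS in both genotypes. With 1 array per group the difference was not tested. Both responses rest on their own PBS array, and for the 5 genes above the wild-type PBS array is the low one.

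The PBS arrays were compared to see which of these transcripts differed by genotype label before any flagellin was given. Slc4a1 was higher by 1.04, or 2.06-fold, Rhag by 0.98, Epb42 by 0.97, Alas2 by 0.80 and Hemgn by 0.72 in the array labelled Duox2-/-. Slc25a37 was at -0.47 and Bpgm at -0.13. The count at least 2-fold higher was 1 of 7, and 1.34% of all genes were. That call was at the limit: Slc4a1 was under 2-fold when each array was centred on its median and after quantile normalization. The median of the members was 0.80, beside 0.04 over all genes and 0.21 over the dim genes.

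After flagellin the genotype labels differed by less. Hemgn was at 0.28, Alas2 at 0.20, Rhag at 0.11, Epb42 at 0.01, Bpgm at -0.14, Slc4a1 at -0.20 and Slc25a37 at -0.46 (Duox2-/- label minus wild type). No member was 2-fold apart, and 1.66% of all genes were in either direction. The median was 0.01, beside 0.01 over all genes, and it lay between -0.17 and -0.04 under the 3 rescalings. The signs of Epb42, Rhag and Bpgm changed under at least 1 of them. This comparison leaves out both PBS arrays.

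**Figure D2:**
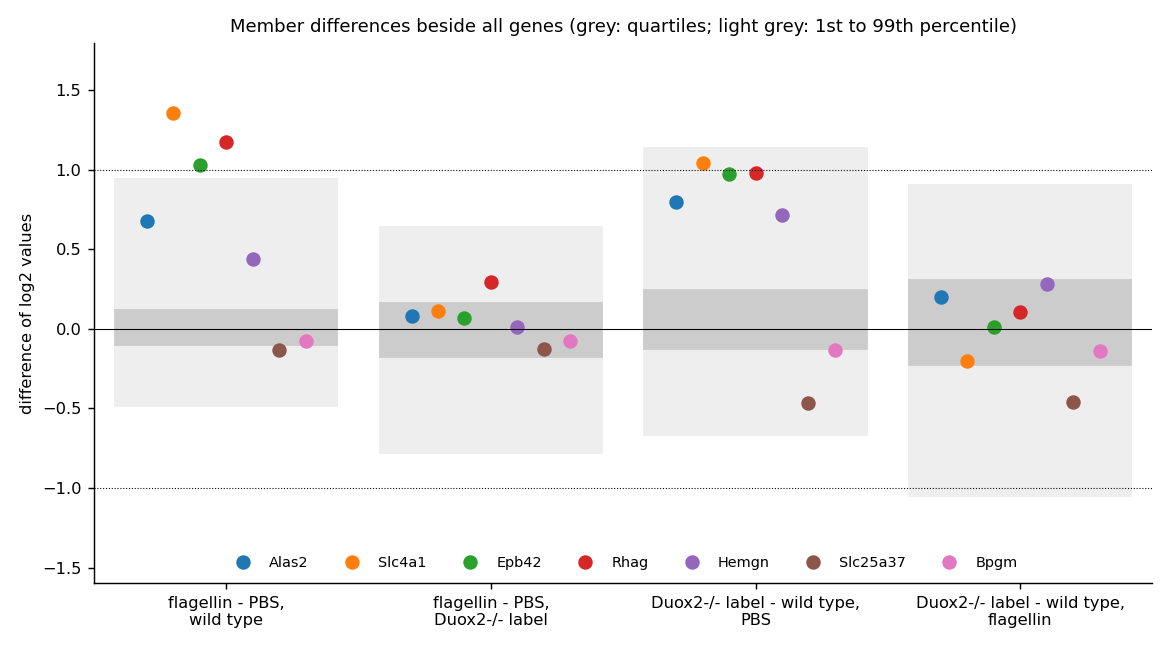
Differences of log2 values of the 7 genes (points) in the 4 pairwise comparisons, with the quartiles (grey) and the 1st to 99th percentile (light grey) of all 19938 genes; dotted lines mark 2-fold. In both comparisons that involve the wild-type PBS array 5 members lie between 0.44 and 1.36. These 5 were picked as lowest in that array. In the other comparisons they lie between -0.20 and 0.30.

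The 12471 brighter genes were also fitted with limma as the sum of 1 flagellin effect, taken as equal in both genotypes, and 1 genotype effect, taken as equal after PBS and flagellin. Its error term is the difference between the responses, with 1 residual degree of freedom, so genes with unequal responses have a large error. It called 0.281% of genes for flagellin and 4.37% for genotype at an adjusted p of at most 0.05. None of the 4 members tested was called for either term, and 2 of the 4 had an unadjusted p under 0.05 for each. Of all 12471 genes in this limma fit, 805 had an unadjusted p under 0.05 for flagellin and 2888 for genotype. Slc4a1 had a common flagellin shift of 0.73 ± 0.25 (SE, limma, adjusted p = 0.553), and Alas2 one of 0.38 ± 0.16 (adjusted p = 0.756). For genotype, Alas2 was higher by 0.50 ± 0.16 (SE, limma, adjusted p = 0.116), and Slc25a37 was at -0.46 ± 0.13 (adjusted p = 0.0767). Slc25a37 passed the threshold when the variance was given a trend with the mean (adjusted p = 0.0314), the only setting of the model in which a member did. That setting called 921 of the 12471 genes for genotype, where the main fit called 545. Bpgm had adjusted p-values of 0.986 for flagellin and 0.566 for genotype in the same limma fit.

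The adult globin probe sets were, like the 5 members, lowest in wild-type PBS. The alpha globin genes Hba-a1 and Hba-a2 share 2 probe sets, and the beta globin genes Hbb-bs, Hbb-bt, Hbb-b1 and Hbb-b2 share another 2, so the genes within a pair of probe sets cannot be told apart. The first alpha globin probe set had log2 values of 9.99 and 10.79 in the wild-type arrays, PBS first, and 10.96 and 11.23 in those labelled Duox2-/-. In the same order the first beta globin probe set had 11.22, 12.03, 12.01 and 12.13. Wild-type PBS was the low array of all 4 of these probe sets, and their mean difference from it was 0.81, 0.90 and 1.09 in the other arrays. For the 5 members the same means were 0.94, 0.90 and 1.02. These 5 were picked because wild-type PBS was their lowest array, so means above 0 were fixed in advance. For Slc25a37 and Bpgm the means were -0.10, -0.30 and -0.40. The embryonic globin genes Hbb-bh1, Hbb-bh2, Hbb-y and Hba-x were dim, and 1 of the 4, Hbb-y, was lowest in wild-type PBS. Flagellin minus PBS in wild type was between -0.26 and 0.17 for them.

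The other genes of the red cell were counted from lists chosen with earlier results of these data known. Of 24 other membrane and skeleton genes 21 were matched, and 10 of them were lowest in wild-type PBS, beside 29.1% of all genes. Rhd, the partner of Rhag, had 4.60, 5.29, 5.37 and 5.56, Kel, which encodes the Kell blood group protein, had 3.94, 4.82, 4.57 and 4.80, and Ermap, an erythroid membrane protein gene, had 5.86, 6.49, 6.67 and 6.65. All 3 were low in wild-type PBS, and their other arrays were close together. Ank1, whose protein ankyrin binds band 3 to the spectrin net, had the same order at a smaller size, with 5.85, 6.21, 6.27 and 6.23. Aqp1, a water channel that vessels also make, had 10.52, 10.33, 9.68 and 9.28 and so ran the other way. The median of the list was 0.05 for flagellin in wild type and 0.07 for genotype under PBS, with 12 of 21 above 0 in each and none at least 2-fold apart.

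Of the 10 genes of red cell enzymes, Car1, a carbonic anhydrase abundant in red cells, was the furthest apart. Its log2 values were 4.70, 6.26, 6.70 and 6.51 in the same order of arrays. It was low in wild-type PBS alone, with a flagellin difference of 1.56 in wild type and -0.19 under the Duox2-/- label. Only Car1 of this list was at least 2-fold higher for flagellin in wild type or for genotype under PBS, and the medians of the list were -0.07 and 0.13, with 3 of the 10 above 0 in the first comparison. Pklr and Car2, a pyruvate kinase and another carbonic anhydrase, were the others lowest in wild-type PBS. Of 12 matched late erythroid genes, 6 were lowest in wild-type PBS, beside 29.1% of all genes. The medians of this list were 0.11 for flagellin in wild type and 0.06 for genotype under PBS, with 9 and 7 genes above 0. Among the 6, Cldn13, a claudin gene of mouse red cell precursors, had 4.47, 5.41, 5.52 and 5.75. Trim10, a gene of late red cell precursors, had 4.83, 5.49, 5.34 and 5.42. These 2 genes are dim as well.

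Of 11 erythroid regulators, which act in earlier red cell precursors, 8 were lowest in wild-type PBS, beside 29.1% of all genes. The remaining genes, Lmo2, Bcl11a and Myb, were the brightest of the list, with 8.81, 8.59 and 7.49 in wild-type PBS. Of the 8, Gata1, Klf1, Nfe2 and Epor are dim, and over all dim genes 80.1% had a mean of the other 3 arrays above wild-type PBS. Tal1, Gfi1b, Zfpm1 and Cbfa2t3 are among the brighter genes, where that share was 38.8%. Their highest values, between 6.74 and 6.99, lay not far above the limit of 6.52. The part of brightness in the count was not tested. The median flagellin difference of the list in wild type was 0.07, and no regulator was 2-fold apart in any comparison of 2 arrays. For genotype under PBS the median was 0.22, beside 0.04 over all genes and 0.21 over the dim genes. Gata1, the master regulator, had 4.75, 5.01, 5.30 and 5.64, and Klf1, which activates globin genes, had 4.63, 4.71, 5.05 and 5.07. Both are dim, and both were highest in the flagellin array labelled Duox2-/-. Of the other 8 enzymes of haem synthesis 7 were matched, and none was lowest in wild-type PBS. Their median was -0.08 for flagellin in wild type and -0.23 for genotype under PBS, with 0 of 7 above 0 in the latter. Alas1, which starts haem synthesis outside red cells, had 11.25, 10.71, 10.56 and 10.50. It was thus highest where Alas2 was lowest. Of 13 matched genes of iron and haem transport 1 was lowest in wild-type PBS, and the medians were -0.05 and -0.16 in the same comparisons.

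**Figure D3:**
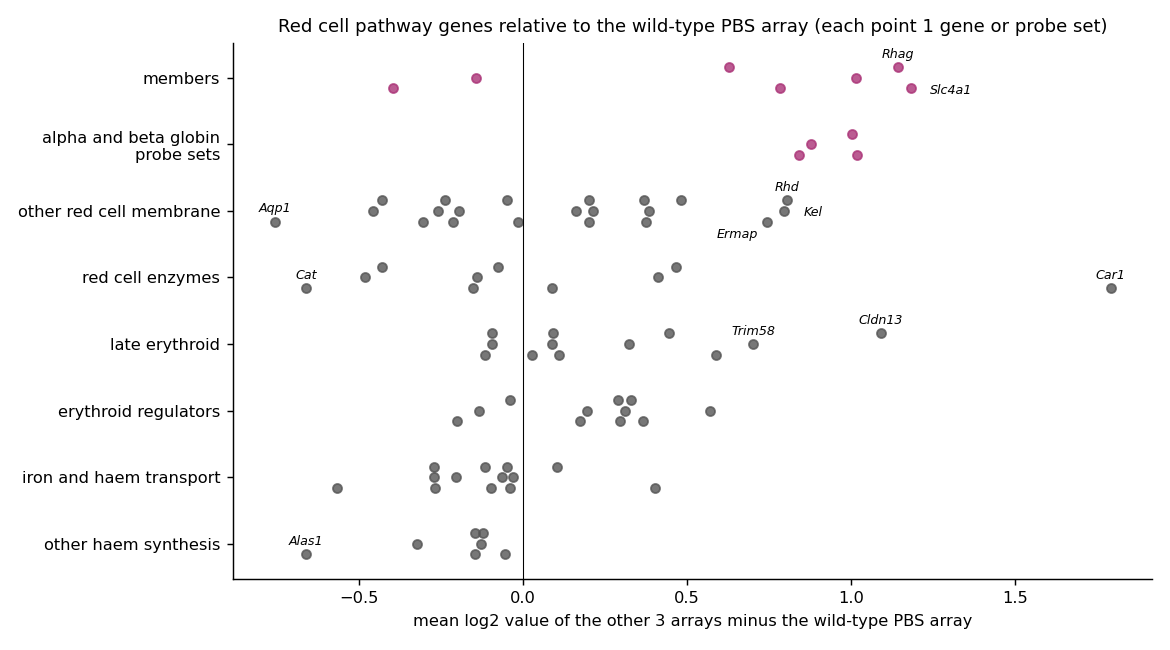
Mean log2 value of the other 3 arrays minus the wild-type PBS array for the members, the globin probe sets (both in purple) and 6 lists of red cell, iron and haem genes (grey); each point is 1 gene or probe set, spread vertically for legibility. The globin probe sets lie between 0.84 and 1.02, Car1 lies at 1.79 and Alas1 at -0.66.

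Markers of other cell types moved between the same arrays, and their part in the values above was not tested. Mature neutrophil markers, 9 of 9 matched, had a mean difference from the wild-type PBS array of 1.21 in wild-type flagellin, and of 0.50 (PBS) and 0.70 (flagellin) under the Duox2-/- label, with 8 of 9 lowest in wild-type PBS. S100a8 and Cxcr2, the brightest of them, had 5.57, 7.40, 6.36 and 6.82, and 6.08, 7.34, 6.55 and 6.85. The mean of the neutrophil markers was highest in wild-type flagellin, as was Slc4a1, while Alas2, Epb42, Rhag and Hemgn were highest in flagellin labelled Duox2-/-. For Epb42 and Rhag the flagellin arrays were only 0.01 and 0.11 apart, and both signs changed after cyclic loess and quantile normalization. The summed level of the neutrophil markers, on the log2 scale, was 8.69, 9.91, 9.16 and 9.41 in the 4 arrays. Granulocyte precursor markers had mean differences of 0.94, 0.43 and 0.43, eosinophil markers 0.77, 0.45 and 0.69, and platelet markers, of which 9 of 13 were matched, 0.40, 0.18 and 0.36. In wild-type flagellin the medians of these lists were lower than the means, at 0.62, 0.10 and 0.23. Of the 5 eosinophil genes, 2 were at least 2-fold higher there.

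Skeletal muscle markers, 10 of 10 lowest in wild-type PBS, had mean differences of 1.39, 2.45 and 0.50, and a summed level of 8.77, 10.31, 11.39 and 9.26. For the 5 members, picked as lowest in that array, the means were 0.94, 0.90 and 1.02. With 1 array per group, the order of the last 3 arrays was not tested for either set. Bone and osteoclast markers had 0.19, 0.66 and 0.19, and B cell precursors, which share the marrow with red cell precursors, 0.07, 0.32 and 0.35. Only 2 of the 9 B cell precursor genes are among the brighter genes, and the median over all dim genes was 0.21 between the PBS arrays. Those 2 are Vpreb3, with 7.50, 7.21, 6.70 and 6.58, and Ebf1, with 9.70, 9.82, 9.87 and 9.94. Endothelial markers, 10 of 10 matched and bright, had -0.05, -0.06 and -0.57, with 0 of 10 lowest in wild-type PBS. Respiratory epithelium had -0.04, -0.43 and -0.59, and olfactory neurons 0.09, -0.08 and 0.26.

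**Figure D4:**
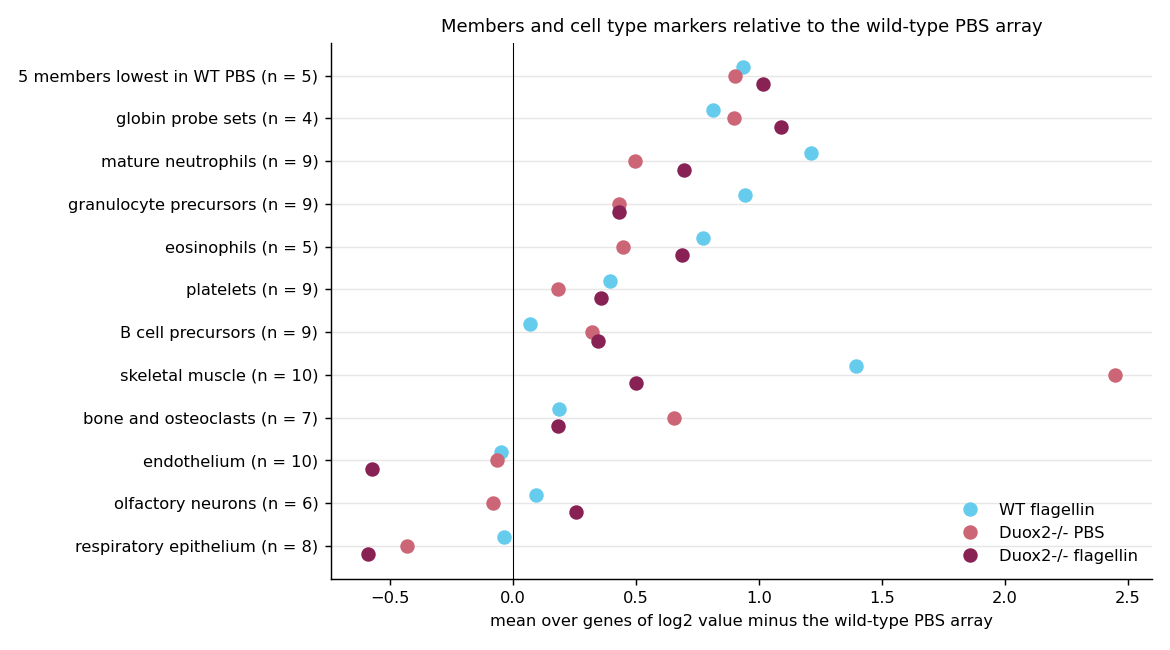
Mean over genes of the log2 value minus that in the wild-type PBS array, for each of the other 3 arrays (points), for the 5 members lowest in wild-type PBS, the globin probe sets and 10 marker lists; n is the number of genes or probe sets. The 5 members, picked on these same values, and the globins lie between 0.81 and 1.09 in all 3 arrays. Neutrophil, muscle and endothelial markers differ between these arrays.

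The genes with the pattern most like the mean of the 7 members were found by the Euclidean distance between values centred on each gene's mean, over 4 arrays and 11669 bright genes. Olfactory and vomeronasal receptor genes, predicted genes and others with provisional symbols were left out beforehand. The nearest were Parvg (distance 0.12), Snord14e (0.13), H1f5 (0.13), Nxpe3 (0.16), Rac2 (0.16), Bub1b (0.17), Usp31 (0.17), Gadd45a (0.17), Stx11 (0.18) and Car2 (0.19). The members themselves lay between 0.24 (Alas2) and 0.92 (Slc25a37) from their own mean. This is a description over 4 arrays, with no test.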

How the data were processed

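The authors deposited log2 values between 1.43 and 13.7, made with RMA in Affymetrix Expression Console 1.1, per the submitters' processing notes. RMA corrects background, normalizes probes between arrays and combines the probes of a set; the deposited gene values still differed in spread between arrays. The values were used without another normalization. Of 35556 probe sets, 21789 were paired with 1 gene, 1621 with several and 12146 with no listed gene. A gene with several probe sets was represented by the one brightest on average. Genes whose highest value reached 6.52 were tested. Array values hold no counts, and the number of arrays limits the precision.

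Differences are of log2 values with no p-value, and counts use a size of 2-fold. For the additive model limma 3.58.1 was run in R 4.3.3 (lmFit, then eBayes, with Benjamini-Hochberg adjustment), and the script was tested on simulated data. Other steps used Python 3.11.15, numpy 2.4.6, pandas 2.3.3 and matplotlib 3.10.9. The members and lists were chosen with earlier results of these data known. Named genes are the members, list genes past 2-fold or in short lists, the 2 brightest of a marker list, and the 10 with the nearest pattern; Rhd, Kel, Ermap, Ank1 and Trim10 were named after their values were seen. Alternatives were 3 rescalings, other probe set rules, other filters, a size of 1.5-fold, and eBayes with a trend or robust.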

Additional observations from a re-analysis of the deposited data

Results flagged for a closer look

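A contrast that had opposite signs in the 2 genotypes or treatments was picked out among the members and the genes of the red cell, iron and haem lists and of the relatives that were past 2-fold; genes of the cell type marker lists were not screened. With 1 array per group none of these differences was tested. Slc4a1 was higher under the Duox2-/- label by 1.04 after PBS and lower by a log2 difference of -0.20 after flagellin, and it kept these signs under the 3 rescalings. Car1 had a flagellin difference of 1.56 in wild type and -0.19 under the Duox2-/- label. Tgm2, a transglutaminase gene related to Epb42, had 0.0073 and -0.69. Its wild-type value is so near 0 that the sign carries little weight, and it was not followed under the rescalings. Pgam2, the muscle form of a mutase related to Bpgm, had 0.38 and -0.62, in the same arrays in which the skeletal muscle markers had medians of 1.13 and -2.11.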

How the results depend on the processing

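For the 5 members lowest in wild-type PBS, flagellin minus PBS in wild type stayed between 0.38 and 1.36, and the genotype difference under PBS was at least 0.54, over median centring, cyclic loess and quantile normalization. Members at least 2-fold higher under the Duox2-/- label after PBS numbered 0 in place of 1 after median centring and quantile normalization, and 5 at a size of 1.5-fold. Members with a response difference of at least 2-fold numbered 2 in place of 1 after cyclic loess, and 4 at 1.5-fold. The share of all genes past the size was not counted at 1.5-fold or after a rescaling, so these counts have no background beside them. For genotype, limma with a trend called 1 member in place of 0, and 921 of 12471 genes in all. For flagellin the additive model called no member under any setting. In sets chosen after the values were seen, the median over the 4 brighter members was 0.30 for flagellin in wild type, 0.33 for genotype under PBS and 0.30 for the response difference, and over the 5 members lowest in wild-type PBS it was 1.03 for flagellin in wild type and 0.88 for the response difference. These medians move because other members enter, and the cause of the other moves was not tested. No value was compared with a spread between replicates: a value was taken as moved when it changed by more than the robust SD of that difference over the brighter genes. Over all genes, the additive model called 35 for flagellin and 545 for genotype, and between 0 and 81, and 1 and 1879, under the alternatives, with the lowest counts after cyclic loess. Rules for probe sets changed no member, since each has 1. No paired analysis was possible because the labels give no replicate numbers and each group has 1 array; the additive model already holds genotype and treatment as terms.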

Other observations

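Of 10 genes that clear haemoglobin and recycle its iron, Cd163, Hpx and Spic were lowest in wild-type PBS, which is 3 of 10 beside 29.1% of all genes. The median of the list was 0.14 for flagellin in wild type and -0.18 for genotype under PBS. Cd163, the macrophage receptor for haemoglobin bound to haptoglobin, had log2 values of 5.84 (PBS) and 6.48 (flagellin) in wild type and 6.53 (PBS) and 5.91 (flagellin) under the Duox2-/- label. Its flagellin difference was 0.64 in wild type and -0.62 under the Duox2-/- label. Hp, the gene of haptoglobin, had, in the same order, 8.86, 9.02, 7.88 and 8.00, so both arrays labelled Duox2-/- were lower, by -0.98 after PBS and -1.02 after flagellin. Slc40a1, the iron exporter, had 7.43, 7.67, 7.31 and 6.78, and Hmox1, which breaks down haem, had 7.33, 7.65, 6.93 and 6.98.

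Relatives of the members varied in order. Pgam1, a relative of Bpgm, had differences near those of Bpgm, with -0.11 for flagellin in either genotype and -0.16 for genotype in either treatment. Pgam2, the muscle form, had 5.27, 5.65, 6.38 and 5.76 and so was lowest in wild-type PBS. Slc25a28, the second mitoferrin, spanned 7.82 to 7.98, and Slc4a2, another anion exchanger, 7.60 to 7.89. Rhbg and Rhcg, the epithelial relatives of Rhag, had flagellin differences of 0.25 and 0.04 in wild type. Tgm2 had 9.24, 9.24, 8.45 and 7.77.

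The pattern of the 5 members lowest in wild-type PBS, a set chosen after its values were seen, was compared with 17442 genes of any brightness. Receptor genes and those with predicted or provisional symbols were left out as before. The 10 nearest were Lce3b, Rhd, Ctse, Kel, Adamts4, Cldn13, Ermap, Prss34, Ncam2 and Myoz3, at distances of 0.15 to 0.28. Rhd, Kel, Cldn13 and Ermap are in the red cell lists, which were chosen with earlier results of these data known. Of these genes, Rhd, Kel and Cldn13 are dim. The share of list genes among the 17442 was not counted, and no test was made of the likeness in pattern.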
